A study of Mus musculus with 2 samples.

Results

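The tubulin isotypes described here were 10 genes of the 24411 counted in the embryonic mouse brain: the alpha-tubulin genes Tuba1a, Tuba1b and Tuba1c, the beta-tubulin genes Tubb2a, Tubb2b, Tubb3, Tubb4b, Tubb5 and Tubb6, and the gamma-tubulin gene Tubg1. They were taken from the count tables by symbol, and no measured value enters that rule. Areas of the subventricular zone (SVZ), where cortical progenitors divide, and of the cortex, where their neuronal progeny settle, were cut by laser capture microdissection (LCM) from fresh frozen brain sections at embryonic day 16.5, and each area gave 1 bulk RNA-seq library. Neither a strain, a genotype nor a treatment is given in the labels, and the number of embryos or sections behind each library is not given in the sources used here. The study sequenced the microdissected areas as a benchmark for a light-written barcoding method, and the comparison drawn below is SVZ against cortex.

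Microtubules are hollow polymers of alpha-beta tubulin dimers. Vertebrates carry several genes for each subunit, and the proteins they encode, called isotypes, are nearly alike in the folded body and differ mostly in the acidic tail at the carboxyl end, where enzymes add and remove the marks known as the tubulin code. In the embryonic cortex dividing progenitors build spindles from these subunits, and migrating neurons use them to move and to extend axons, while gamma-tubulin forms the ring from which microtubules are nucleated. Mutations of TUBA1A, TUBB2B and TUBB3 in people cause malformations of the cortex.

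The ends of the coding sequences of 5 beta genes are shown because they hold the stretch in which the isotypes differ most, and because they show how few bases separate some of the genes when reads are assigned. Each line gives the last 75 coding bases, stop codon included, 5′ to 3′ on the coding strand of GRCm38 (transcripts of GENCODE M21). Capitals mark bases that differ in an alignment from Tubb5, including bases set against a gap in Tubb5.
Tubb5 (chr17:35834982-35835056, minus strand): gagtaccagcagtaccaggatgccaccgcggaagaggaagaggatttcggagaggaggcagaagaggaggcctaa
Tubb2a (chr13:34074468-34074542, minus strand): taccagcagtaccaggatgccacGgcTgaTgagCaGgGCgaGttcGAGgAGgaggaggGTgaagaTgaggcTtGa
Tubb2b (chr13:34127471-34127545, minus strand): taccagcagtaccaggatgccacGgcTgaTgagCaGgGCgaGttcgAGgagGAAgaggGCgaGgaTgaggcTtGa
Tubb3 (chr8:123421608-123421682, plus strand): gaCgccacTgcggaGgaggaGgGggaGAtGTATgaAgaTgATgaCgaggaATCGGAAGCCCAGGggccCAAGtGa
Tubb4b (chr2:25222308-25222382, minus strand): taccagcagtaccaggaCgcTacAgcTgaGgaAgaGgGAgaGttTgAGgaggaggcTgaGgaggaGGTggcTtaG

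Of these 75 bases, Tubb2a differed from Tubb5 in 18, Tubb2b in 19, Tubb4b in 20 and Tubb3 in 35. Inserted bases are counted in these numbers. The full alignments with Tubb5 held 18 gap columns for Tubb3 and 3 for each of Tubb2a, Tubb2b and Tubb4b. Over the whole coding sequence Tuba1a and Tuba1b were 98.3% identical, with 23 mismatches in 1356 aligned bases. Tubb2a and Tubb2b were 96.5% identical, with 47 mismatches in 1338. Tubb3 and Tubb5, in contrast, were 81.2% identical. The alpha genes lie together on chromosome 15, with Tuba1a at 98949837 to 98953703, Tuba1b at 98931425 to 98934565 and Tuba1c at 99029891 to 99038110. Tubb2a (chromosome 13, 34074274 to 34078007) and Tubb2b (34126748 to 34130466) are neighbours 48.7 kb apart. The others lie apart from these clusters and from each other, Tubb3 on chromosome 8 (123411424 to 123422015), Tubb4b on chromosome 2 (25222160 to 25224702), Tubb5 on chromosome 17 (35833921 to 35838306), Tubb6 on chromosome 18 (67390717 to 67402749) and Tubg1 on chromosome 11 (101119938 to 101126419). All 10 are annotated as protein coding, with 4 exons in the transcript used for each tubulin of the alpha and beta families and 11 in that of Tubg1.

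This near identity bears on the counts, since a read that maps to several places was given to no gene. Of the 75-base windows of the Tuba1a transcript, 43.7% occurred in no other annotated gene, and the shares were 24.0% for Tuba1b, 43.3% for Tuba1c, 56.8% for Tubb2a, 67.8% for Tubb2b and 62.2% for Tubb4b. Within coding sequence alone the share was 24.1% for Tuba1a and 9.44% for Tuba1b, so most of the countable windows of these genes included untranslated sequence. For Tubb3, Tubb5 and Tubb6 every window was unique (100%), and for Tubg1 92.4% were. The counts of the alpha genes, of Tubb2a and Tubb2b and of Tubb4b are therefore uncertain as absolute levels. The ratio of the same gene between the libraries rests on the same countable windows. Whether reads were spread alike along the transcripts in both libraries was not tested.

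**Figure D1:**
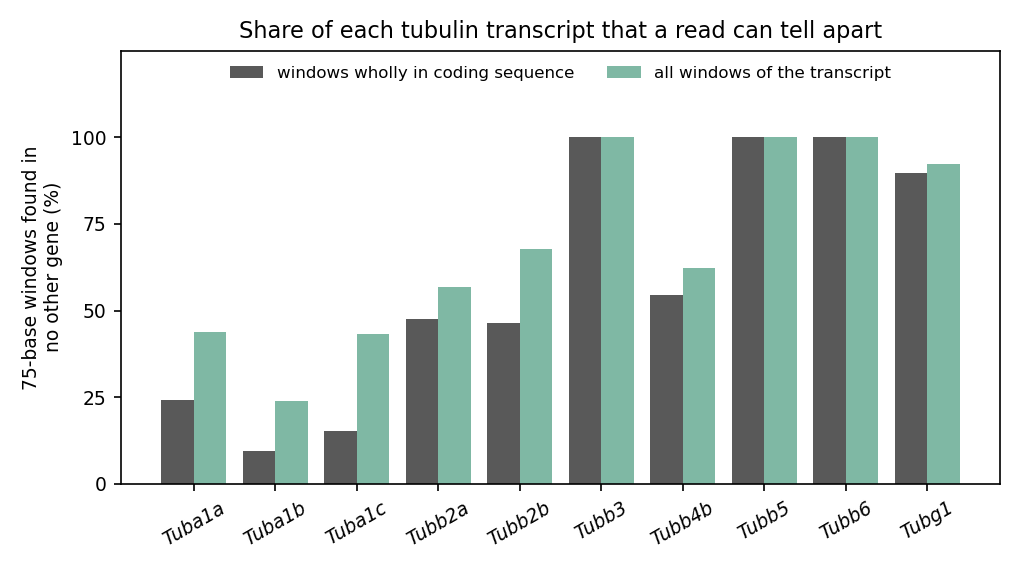
Share of 75-base windows (y axis, in percent) found in no other gene of GENCODE M21, for each of the 10 tubulin genes (x axis). Dark bars are windows wholly in coding sequence and light bars all windows of the transcript, with Tuba1b lowest in both (9.44% and 24.0%) and Tubb3, Tubb5 and Tubb6 at 100%.

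The SVZ library held 51435667 gene-assigned reads and the cortex library 22050693, and levels are given as CPM, the reads of a gene scaled to the gene-assigned reads of its library, with 1 read worth 0.0194 CPM in the former and 0.0454 CPM in the latter. Reads with several matches to the genome made up 8.20% of the SVZ library and 6.89% of the cortex library. The markers followed the labels of the 2 areas. All 9 progenitor markers were 2-fold or more higher in the SVZ (summed level 1932 against 73.4 CPM), with Pax6 at 179.7 against 0.680 CPM. Of genes averaging 10 CPM or more, 14.9% were. All 8 neuron markers were higher in the cortex library (2535 against 7059 CPM), while 55.2% of those genes were higher in the SVZ. Of the 8, 6 were 2-fold or more higher, beside 12.3% of those genes, with Snap25 at 114 against 475 CPM. Neurod6 (1592 against 2797 CPM) and Rbfox3 (74.2 against 92.5 CPM) were not. With 1 library for each area there is no replicate check, no test between the areas was run, and the 95% intervals printed here cover counting error only, for reads that carry no molecular identifier. In bulk tissue fewer cells of a type and less RNA per cell cannot be told apart.

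Together the 10 tubulin genes took up 0.629% of the SVZ gene-assigned reads (exact 95% interval 0.627 to 0.631%) and 1.31% of those of the cortex (1.30 to 1.31%). The cortex level was 2.08-fold the SVZ level, 13064 against 6292 CPM. The 3 alpha genes summed to 2704 CPM in the SVZ and 6409.6 CPM in the cortex, a 2.37-fold difference. The 6 beta genes summed to 3481 CPM and 6587 CPM, 1.89-fold higher in the cortex. Direction nevertheless differed from gene to gene: 5 members had the higher CPM in the cortex library (Tuba1a, Tubb2a, Tubb2b, Tubb3 and Tubb5) and 5 in the SVZ library (Tuba1b, Tuba1c, Tubb4b, Tubb6 and Tubg1). Those higher in the cortex were the 5 members with the highest CPM there. The split stayed 5 and 5 under each other scaling tried and became 4 and 6 with the sum of the 2 columns that count reads by strand (the stranded sum), which turned Tuba1c.

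Of the 10 members, 8 averaged 10 CPM or more over the libraries, Tuba1c (7.12 CPM) and Tubb6 (7.27 CPM) being the exceptions. Among the 8, 3 had a cortex level of 2-fold or more the SVZ level, namely Tuba1a, Tubb2a and Tubb3, as had 12.3% of the 9027 genes with such an average. None (0 of 8) was 2-fold or more higher in the SVZ, where 14.9% of genes were, and Tuba1b stood just under the limit at 1.996-fold. The SVZ level was the higher one for 3 of the 8 (Tuba1b, Tubb4b and Tubg1) and for 55.2% of all genes. The median log2 ratio, SVZ over cortex, was −0.75 for the 8 members and −0.02 for all 10, against 0.10 for all genes averaging 10 CPM or more, whose middle 50% ran from −0.46 to 0.61. The interval of the ratio excluded equal CPM for 10 of 10 members and for 89.3% of those genes, so that at this depth counting error separated most genes and the interval alone sets no tubulin gene apart.

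**Figure D2:**
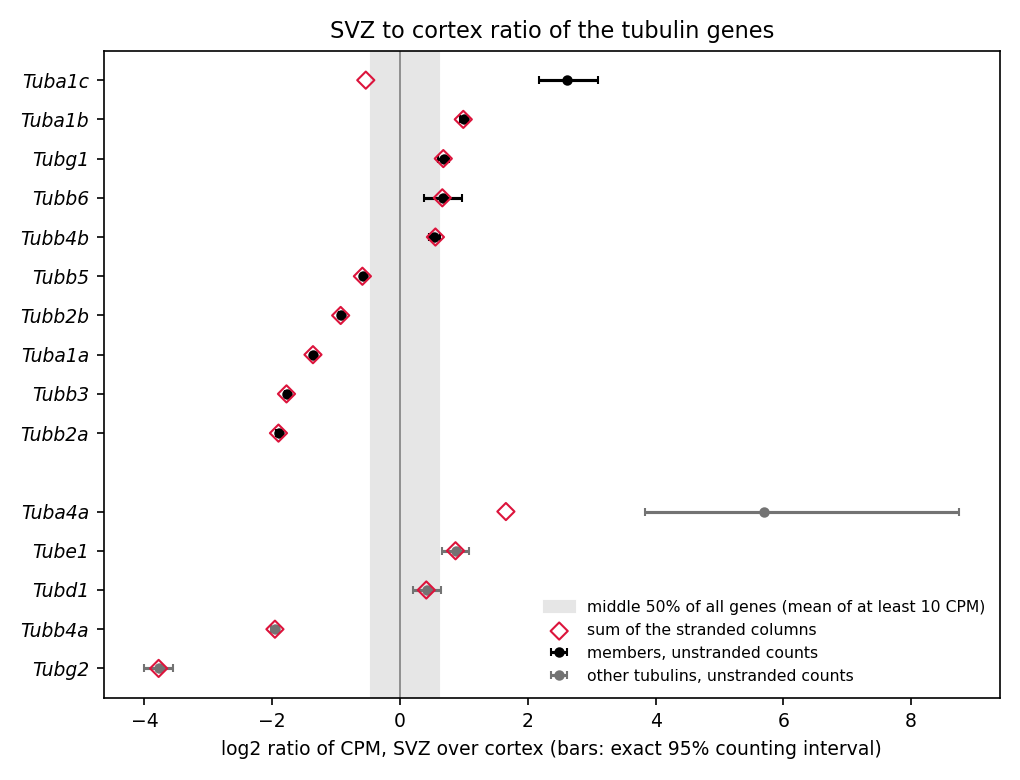
log2 ratio of CPM, SVZ over cortex (x axis), of the 10 tubulin members (black) and of the 5 other tubulin genes averaging 1 CPM or more (grey), with exact 95% counting intervals as bars and the ratio from the sum of the 2 deposited stranded columns as open red diamonds; the shaded band holds the middle 50% of all genes averaging 10 CPM or more (−0.46 to 0.61). The diamonds lie on the points except for Tuba1c (2.62 unstranded, −0.54 stranded) and Tuba4a (5.70 and 1.66).

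Levels of different genes were compared as CPM per kilobase of annotated exon (RPKM). The order in the SVZ library was Tuba1a, Tubb5, Tubb3, Tubb2b, Tuba1b, Tubb2a, Tubg1, Tubb4b, Tuba1c and Tubb6, from 1360.3 down to 5.08 RPKM, a 268-fold range. In the cortex library it was Tuba1a, Tubb5, Tubb3, Tubb2b, Tubb2a, Tuba1b, Tubb4b, Tubg1, Tubb6 and Tuba1c, from 3488 to 1.01 RPKM, a 3464-fold range. The last place and the range in the cortex rest on the 44 unstranded reads of Tuba1c: with the stranded sum it stood at 20.2 RPKM, Tubb6 was lowest in both libraries and the cortex range was 1097-fold. Thus the first 4 places were held by the same genes in the same order, and the changes lay among neighbours below them. Neighbours could lie close: Tubb3 (265 RPKM) and Tubb2b (259.9 RPKM) in the SVZ, and Tubb4b (37.3 RPKM) and Tubg1 (37.2 RPKM) in the cortex. When reads were divided by the kilobases of unique windows in place of all exons, Tuba1b moved from the fifth to the third place in the SVZ library, at 596 CPM per unique kilobase beside 276 for Tubb3, while Tuba1a and Tubb5 kept the first places in both libraries.

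**Figure D3:**
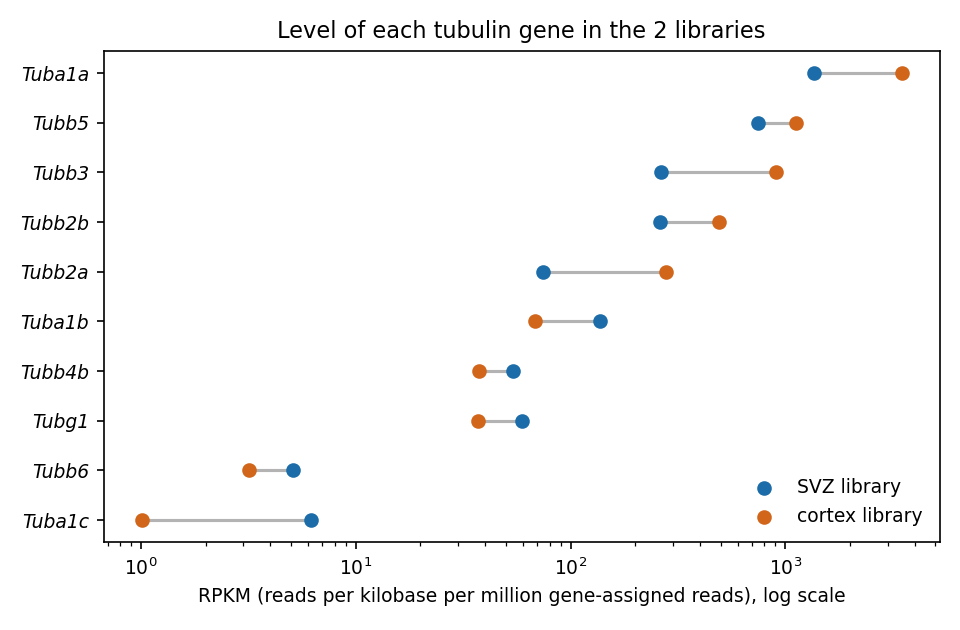
Level of each tubulin gene in RPKM (x axis, log scale) in the SVZ library (blue) and the cortex library (orange), 1 value per library, ordered from the highest cortex level at the top. Tuba1a heads both libraries (1360.3 and 3488 RPKM), and in these unstranded counts Tuba1c is lowest in the cortex (1.01 RPKM, but 20.2 RPKM and above Tubb6 with the stranded sum) and Tubb6 lowest in the SVZ (5.08 RPKM).

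Tuba1a, the main alpha-tubulin of postmitotic neurons during brain development, had 126150 SVZ reads and 138654 cortex reads, although the cortex library was the shallower one. This came to 2453 and 6288 CPM, 2.56-fold higher in the cortex (95% interval 2.54 to 2.58). Tuba1b, a broadly expressed alpha-tubulin, went the other way, with 12286 reads (239 CPM) in the SVZ and 2639 reads (119.7 CPM) in the cortex. The SVZ level was 1.996-fold the cortex level (1.91 to 2.08), so the interval spanned the 2-fold limit. Tuba1c, an alpha-tubulin of many proliferating cells, was sparse, with 630 reads (12.2 CPM) in the SVZ and 44 reads (1.995 CPM) in the cortex, a 6.14-fold higher SVZ level (4.52 to 8.53). That direction did not hold for reads counted by strand: the 2 stranded columns, summed, gave Tuba1c 1457 reads in the SVZ and 903 in the cortex, and the log2 ratio turned from 2.62 to −0.54 (95% interval −0.66 to −0.41). The direction of Tuba1c thus depends on the column read, and its gain of 827 and 859 reads was close to that of Tuba1a and Tuba1b together (809 and 838 reads). A read that overlaps genes on opposite strands is counted for each of them in the stranded sum. Which count lies nearer the level of Tuba1c was not tested.

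Because a ratio within a library does not depend on how libraries are scaled, the alpha genes were also set against each other. The ratio of Tuba1a to Tuba1b reads was 5.12-fold higher in the cortex library than in the SVZ library (conditional exact 95% interval 4.90 to 5.34). For Tuba1a over Tuba1c the ratio was 15.7-fold higher in the cortex (11.6 to 21.9) with the unstranded counts, log2 −3.98 as SVZ over cortex, and −0.83 with the stranded sum. As a share of the alpha pool, which holds the 3 alpha members and is counted per kilobase, Tuba1a made up 90.5% in the SVZ (90.3 to 90.6%) and 98.04% in the cortex (97.97 to 98.1%). The share of Tuba1b was 9.11% in the SVZ and 1.93% in the cortex, and that of Tuba1c 0.411% and 0.0283%. With the stranded sum the Tuba1c share came to 0.940% in the SVZ and 0.574% in the cortex. Per kilobase of unique windows, which favours Tuba1b, the most repeated of them, Tuba1a held 84.2% and 96.5% and Tuba1b 15.5% and 3.46%. Under each of these ways of counting, Tuba1a was the large majority in both libraries and its share was the larger one in the cortex.

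**Figure D4:**
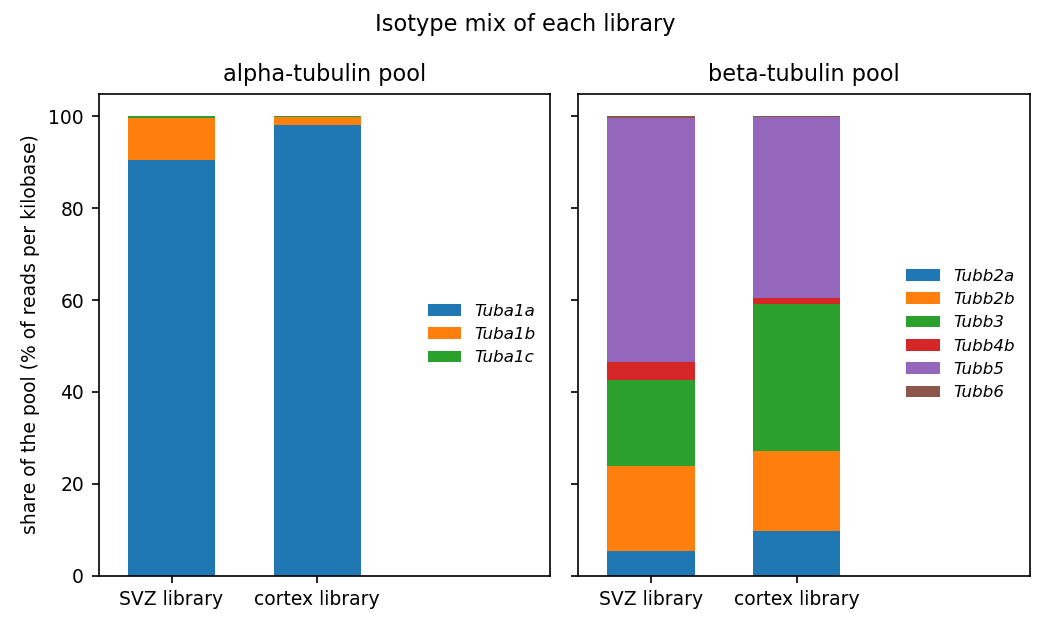
Isotype mix of the alpha-tubulin pool (left, the 3 alpha members) and beta-tubulin pool (right, the 6 beta members, without Tubb4a) in the SVZ and cortex libraries, as stacked shares of the summed reads per kilobase (y axis, in percent), 1 library per bar. In the alpha pool Tuba1b takes 9.11% in the SVZ and 1.93% in the cortex, and in the beta pool Tubb3 takes 18.9% and 31.9% while Tubb5 takes 53.1% and 39.5%.

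Among the beta genes Tubb3, the class III isotype that is used as a marker of neurons, had 25486 SVZ reads and 37341 cortex reads. Its level was 495 CPM in the SVZ and 1693 CPM in the cortex, 3.42-fold higher in the latter (3.36 to 3.47). Tubb2a, a class II isotype abundant in brain, had 6186 reads (120.3 CPM) in the SVZ and 9887 reads (448 CPM) in the cortex, 3.73-fold higher in the cortex (3.61 to 3.85). These values placed Tubb2a and Tubb3 past the 2-fold limit with their whole interval. Tubb2b, the other class II isotype, had 29167 reads (567 CPM) in the SVZ and 23740 reads (1077 CPM) in the cortex. It was 1.90-fold higher in the cortex (1.87 to 1.93), just short of the limit, with the log2 ratio moving from −0.92 to −1.02 under TMM scaling. Tubb5, a broadly expressed isotype also found in dividing progenitors, had 113279 reads (2202 CPM) and 72836 reads (3303 CPM), 1.4998-fold higher in the cortex (1.49 to 1.51). All 4 of these genes were thus higher in the cortex library, with the smallest difference for Tubb5.

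Tubb4b and Tubb6 had the higher level in the SVZ library. Tubb4b, a class IV isotype made in most tissues and used in cilia, had 4460 reads (86.7 CPM) in the SVZ and 1316 reads (59.7 CPM) in the cortex, 1.45-fold higher in the SVZ (1.37 to 1.55). Tubb6, a class V isotype, had 459 reads (8.92 CPM) and 124 reads (5.62 CPM), 1.59-fold higher in the SVZ (1.30 to 1.95). Neither reached 2-fold, and the counts of Tubb6 were the lowest of the beta genes in both libraries. Tubg1, which nucleates microtubules at centrosomes and spindles, had 5533 reads (108 CPM) in the SVZ and 1479 reads (67.1 CPM) in the cortex, 1.60-fold higher in the SVZ (1.51 to 1.70).

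The mix of the beta pool differed between the libraries. The pool holds the 6 beta members and leaves out Tubb4a, at 32.5 RPKM in the SVZ and 125.9 RPKM in the cortex. Per kilobase, Tubb5 made up 53.1% of the pool in the SVZ (52.9 to 53.4%) and 39.5% in the cortex (39.2 to 39.7%). Tubb3 made up 18.9% in the SVZ (18.7 to 19.1%) and 31.9% in the cortex (31.7 to 32.2%). The share of Tubb2a was 5.31% in the SVZ and 9.81% in the cortex, while that of Tubb2b was near level at 18.5% and 17.4%. The small shares of Tubb4b, 3.86% in the SVZ and 1.32% in the cortex, and of Tubb6, 0.361% and 0.113%, were larger in the SVZ. The ratio of Tubb3 to Tubb5 reads was 2.28-fold higher in the cortex (2.24 to 2.32), and that of Tubb3 to Tubb4b reads 4.97-fold higher (4.66 to 5.30). The neighbouring class II genes also parted, Tubb2a over Tubb2b being 1.96-fold higher in the cortex (1.89 to 2.04). The smallest of the 6 pair differences compared was that of Tubb2b over Tubb5, 1.27-fold (1.24 to 1.29).

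The promoters of the 3 genes past 2-fold in the cortex, chosen by those ratios, are shown with that of Tuba1b, which differed the other way from its near-identical neighbour. Each runs from 250 bases before to 50 bases after the annotated start, 5′ to 3′ on the gene's strand (RefSeq, GRCm38.p6). A promoter was matched for 7 of the 10 members. Capitals mark matches, on either strand, to the TATA box TATAAA, the CCAAT box CCAAT, the GC box GGGCGG and the E-box CAGCTG.
Tuba1a (chr15:98953452-98953751, minus strand): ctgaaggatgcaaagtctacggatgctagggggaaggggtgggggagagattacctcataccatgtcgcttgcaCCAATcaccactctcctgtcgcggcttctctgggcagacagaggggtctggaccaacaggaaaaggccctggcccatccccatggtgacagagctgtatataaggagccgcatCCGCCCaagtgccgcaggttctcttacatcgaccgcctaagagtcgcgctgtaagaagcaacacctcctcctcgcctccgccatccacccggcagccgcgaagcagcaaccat
Tubb2a (chr13:34077959-34078258, minus strand): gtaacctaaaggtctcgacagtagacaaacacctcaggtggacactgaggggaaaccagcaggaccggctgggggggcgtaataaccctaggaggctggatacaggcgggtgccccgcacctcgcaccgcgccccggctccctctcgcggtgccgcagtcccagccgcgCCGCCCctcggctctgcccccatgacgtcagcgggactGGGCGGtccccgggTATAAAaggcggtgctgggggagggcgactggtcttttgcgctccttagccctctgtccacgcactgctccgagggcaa
Tubb3 (chr8:123411303-123411602, plus strand): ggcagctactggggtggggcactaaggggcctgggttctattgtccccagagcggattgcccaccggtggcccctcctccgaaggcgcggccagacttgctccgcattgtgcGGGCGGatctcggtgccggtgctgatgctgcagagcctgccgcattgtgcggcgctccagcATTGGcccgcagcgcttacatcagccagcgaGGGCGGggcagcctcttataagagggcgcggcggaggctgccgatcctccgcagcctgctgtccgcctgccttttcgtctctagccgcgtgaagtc
Tuba1b (chr15:98934341-98934640, minus strand): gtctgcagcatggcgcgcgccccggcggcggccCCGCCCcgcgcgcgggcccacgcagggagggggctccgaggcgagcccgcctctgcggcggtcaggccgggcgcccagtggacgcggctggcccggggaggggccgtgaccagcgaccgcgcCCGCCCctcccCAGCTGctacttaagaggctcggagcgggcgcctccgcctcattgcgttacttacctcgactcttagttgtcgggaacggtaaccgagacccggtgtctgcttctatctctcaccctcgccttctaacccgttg

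These 4 promoters each held a GC box, 1 in Tuba1a and 2 in each of Tubb2a, Tubb3 and Tuba1b, and 35.7% of the 32851 mouse promoters in the table did. A CCAAT box was found in Tuba1a and Tubb3, 1 each, and in 37.4% of all promoters. The exact TATAAA was found in Tubb2a of these 4, and in 13.6% of all promoters. The E-box form CAGCTG was found in Tuba1b alone of the 7 matched promoters, against 16.3% of all, and other forms of the E-box were not searched. None of the 4 motifs was shared by the 3 cortex-higher genes and missing from Tuba1b. A match is a run of letters and not a site shown to be used, and its part in the ratios was not tested.

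Other tubulin genes gave a wider spread than the members. Of 10 such genes, 5 averaged 1 CPM or more, the minimum used for all gene lists below. Of the 5, 3 were higher in the SVZ library, as were 54.9% of all genes with such an average. Tubb4a, a class IV isotype of neurons and oligodendrocytes, had 3724 reads (72.4 CPM) in the SVZ and 6185 reads (280.5 CPM) in the cortex, 3.87-fold higher in the cortex (3.72 to 4.04). Tubg2, the second gamma-tubulin gene, known for its expression in brain, had 195 reads (3.79 CPM) in the SVZ and 1144 reads (51.9 CPM) in the cortex, 13.7-fold higher in the cortex (11.7 to 16.0). The 2 gamma-tubulin genes, which lie 29.5 kb apart on chromosome 11, were thus higher in opposite libraries. The ratio of Tubg1 to Tubg2 reads was 21.9-fold higher in the SVZ (18.6 to 25.9), a pair chosen after its values were seen. Tubd1 and Tube1, the delta- and epsilon-tubulins of centrioles, were 1.33-fold (1.15 to 1.56) and 1.83-fold (1.58 to 2.12) higher in the SVZ, with 703 against 226 and 976 against 229 reads. Tuba4a, an alpha-tubulin encoded without the terminal tyrosine, had 242 reads in the SVZ and 2 in the cortex, a log2 ratio of 5.70 that came to 1.66 with the stranded sum, and its exons overlap those of Stk16 on the opposite strand over 1379 bases. Tuba8, Tubb1, Tuba3a, Tuba3b and Tubal3 had at most 4 reads in either library, near the floor of 3 reads (0.0583 CPM in the SVZ and 0.136 CPM in the cortex) that a count of 0 allows.

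Genes that fold tubulin differed little. All 14 genes of the CCT chaperonin and prefoldin, which fold newly made tubulin, entered, 12 were higher in the SVZ library and 0 passed 2-fold in either direction, with a median log2 ratio of 0.25. Under upper-quartile scaling 11 of the 14 were higher in the SVZ. Over the 12738 genes averaging 1 CPM or more, 54.9% were higher in the SVZ, 20.0% were past 2-fold in that direction and 15.6% past 2-fold toward the cortex. Of 9 genes for the folding cofactors of the alpha-beta dimer, their relatives and their partners, 5 were higher in the SVZ and 4 in the cortex, with a median of 0.10. Arl2bp, which binds the cofactor GTPase Arl2, was the only 1 of them past 2-fold, at 213 CPM in the SVZ and 103.7 CPM in the cortex, 2.06-fold (1.97 to 2.15). Of the 2 genes for the decay of tubulin mRNA when free subunits are in excess, Ttc5, which recognises nascent tubulin, was 1.34-fold higher in the SVZ (337 against 251 CPM), and Scaper, which recruits the deadenylase, was 2.34-fold higher in the cortex (40.8 against 95.6 CPM).

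Of the 2 lists for microtubule nucleation, augmin lay wholly on the SVZ side and the gamma-tubulin ring complex was near the share of all genes. Of 8 genes of the gamma-tubulin ring complex 6 were higher in the SVZ, beside 54.9% of all genes, with a median log2 ratio of 0.14, and the number was 5 under TMM, upper-quartile and DESeq2 scaling and 7 with the stranded sum. Nedd1, which brings the ring to centrosomes and spindles, was the only one past 2-fold (1 of 8, beside 20.0% of all genes), with 3560 reads (69.2 CPM) in the SVZ and 238 reads (10.8 CPM) in the cortex, 6.41-fold (5.62 to 7.34). Augmin recruits the gamma-tubulin ring to microtubules of the spindle, from which branches are then nucleated. All 8 of its genes were higher in the SVZ, 5 of them at least 2-fold, against the 20.0% given above, with a median log2 ratio of 1.29. Haus1 stood at 112 against 38.0 CPM (2.95-fold), Haus4 at 27.5 against 9.48 CPM (2.90-fold) and Haus3 at 72.5 against 27.5 CPM (2.64-fold). Augmin thus showed the largest list median toward the SVZ of the 8 lists plotted here.

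Enzymes of the tubulin code were mostly higher in the cortex library. Of 17 genes that write marks on tubulin, 12 entered, 10 of them higher in the cortex, with a median log2 ratio of −0.68. Of all genes averaging 1 CPM or more, 54.9% were higher in the SVZ. Past 2-fold were 5 of the 12 toward the cortex, beside 15.6% of all genes, and 1 toward the SVZ, beside 20.0%, namely Ttll4, another glutamylase, at 2.45-fold (446 against 78 reads). Atat1, which acetylates the alpha-tubulin lumen, had 14996 reads (291.5 CPM) in the SVZ and 18181 reads (825 CPM) in the cortex, 2.83-fold higher in the cortex (2.77 to 2.89). Ttl, which puts the terminal tyrosine back, was 2.67-fold higher there (19.1 against 50.9 CPM), and Ttll7, a polyglutamylase of beta-tubulin tails, 2.04-fold (11.6 against 23.6 CPM). Ttll3 (21 SVZ and 51 cortex reads) and Ttll9 (49 and 47 reads), the others past 2-fold toward the cortex, rest on few reads. Of 11 erasers 9 entered, 7 of them higher in the cortex, where again 54.9% of all genes were higher in the SVZ, with a median of −0.88. Past 2-fold were 3 of the 9 toward the cortex, beside the same 15.6%, and 1 toward the SVZ, Agbl4, a relative of Agtpbp1, with 94 against 4 reads (10.1-fold, 3.81 to 37.7). Ttll3, Ttll4, Ttll9 and Agbl4, all under the minimum for naming, were named after their values were seen. The 3 higher in the cortex were Agtpbp1, which trims glutamate chains, at 17.9 against 97.6 CPM (5.45-fold), and the tyrosine-removing peptidases Vash1, at 47.1 against 192 CPM (4.07-fold), and Vash2, at 69.5 against 294 CPM (4.23-fold). Agbl5, a further trimming enzyme named after its values were seen, turned from −0.74 to 0.10 with the stranded sum.

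**Figure D5:**
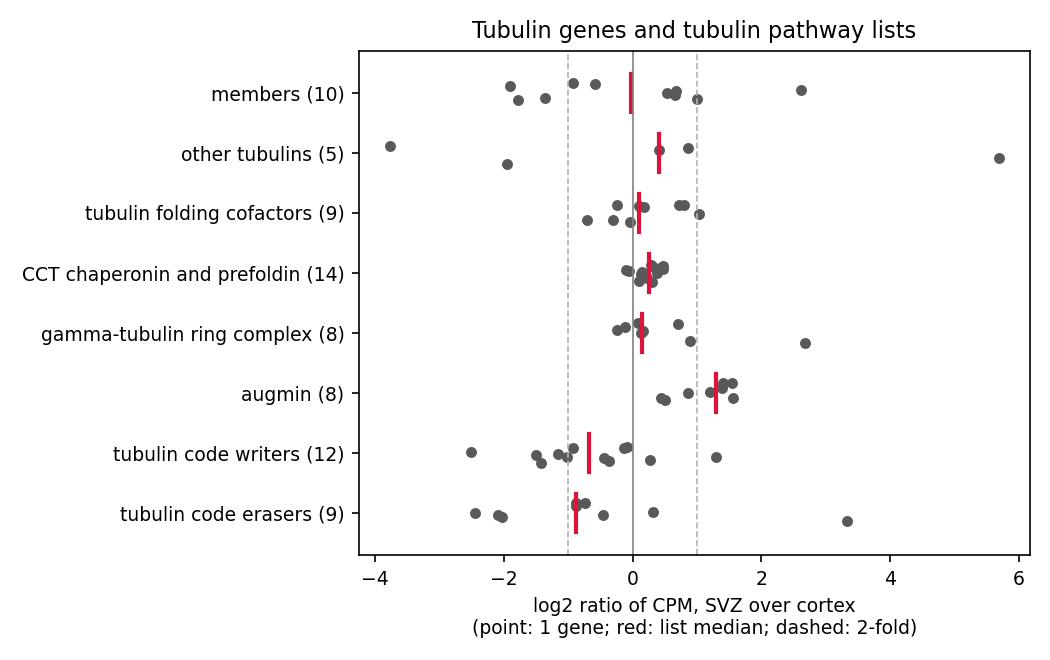
log2 ratio of CPM, SVZ over cortex (x axis), of each gene averaging 1 CPM or more in 8 lists (number of genes in brackets), with 1 point per gene, the list median as a red line and 2-fold limits dashed. Augmin lies wholly to the SVZ side (median 1.29), and the code writers (−0.68) and erasers (−0.88) have medians on the cortex side, against 0.10 for all genes averaging 10 CPM or more.

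Markers of other cells also differed between the libraries. The 6 microglia markers were each at least 2-fold higher in the SVZ (summed 50.3 against 5.53 CPM), beside 20.0% of genes averaging 1 CPM or more. Their cortex counts were low, from 6 reads (Aif1) to 37 reads (P2ry12). Of the choroid plexus markers, Ttr had 12363 reads in the SVZ and 16 in the cortex, and the list summed to 246 against 0.726 CPM, with Kl at 0 in both. The 6 endothelial markers summed to 72.8 and 62.1 CPM, 3 of them higher in each library, where 54.9% of genes averaging 1 CPM or more were higher in the SVZ. Of the 6 erythroid markers, Hba-a1, Hbb-bt and Hbb-bs were at 0 in both libraries and the list summed to 22.6 and 11.5 CPM, and the 5 platelet markers to 2.94 and 7.48 CPM, with Gp9 at 0 in both and Ppbp at 0 in the cortex. The 5 markers of motile ciliated cells summed to 16.7 and 20.4 CPM, with 1 gene giving 17.3 CPM of the cortex sum. Of the 3 averaging 1 CPM or more, 1 was higher in the SVZ and 2 in the cortex, beside the same 54.9%. The part of these cells, and of the mix of progenitors and neurons, in the tubulin ratios was not tested.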

How the data were processed

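LCM and bulk RNA-seq were applied to the SVZ and the cortex of fresh frozen E16.5 brain, giving 1 library per area. RNA was extracted with a low-input column kit and libraries were sequenced as 75-base pairs. The authors used cutadapt 4.1 to trim reads and STAR 2.7.9a to align only read 1 of each pair to mm10 (GRCm38) and to count it by gene. The deposited values are raw read counts in 3 columns per library, 1 without regard to strand and 2 by strand; reads that map to several places or overlap several genes enter no gene's count. Removal of duplicate reads is not given in the sources used here. A further deposited table holds the authors' counts, CPM, ratio and log10 ratio, and was not used.

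The unstranded counts were divided by the total of the gene rows (51435667 reads in the SVZ library, 22050693 in the cortex library) to give CPM. Ratios are SVZ over cortex with no pseudocount, with exact 95% Clopper-Pearson intervals, and pairs of genes have conditional exact intervals of the odds ratio. Because each area has 1 library, a rule of size (2-fold, among genes averaging 10 CPM or more, or 1 CPM for lists) took the place of a test. Exon lengths, positions, coding sequences and the 75-base windows came from GENCODE M21, matched by symbol, and promoters from RefSeq. One eraser, Svbp, was matched under its older symbol. The interval code was tested on simulated data.

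The members and lists were chosen with earlier results of these data known. Named genes are all members, other tubulins and the markers. From each pathway list come those averaging 10 CPM or more with a 2-fold ratio or more, at most 3 in each direction. Ttc5, Arl2, Agbl5, Ttll3, Ttll4, Ttll9 and Agbl4 are named besides. Alternatives were the TMM and upper-quartile methods of edgeR 4.0.16, size factors from DESeq2 1.42.0, library totals that leave out the 10 top genes, the stranded sum, thinning of the SVZ library, a pseudocount of 1 CPM and other limits. R 4.3.3, Python 3.11.15, numpy 2.4.6, pandas 2.3.3, scipy 1.17.1, Biopython 1.88 and matplotlib 3.10.9 were used. The coding ends of the alpha genes are not reported here.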

Additional observations from a re-analysis of the deposited data

Results flagged for a closer look

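The 2 columns that count reads by strand lay outside the comparison above, and for some tubulin genes they held more reads together than the unstranded column, which sets aside reads that overlap genes on both strands. Tuba1c gained 827 SVZ reads and 859 cortex reads, Tuba1a gained 715 and 813, and Tuba1b gained 94 and 25. No exon on the opposite strand of Tuba1a or Tuba1c is listed in GENCODE M21, and the annotation that goes with the iGenomes copy of mm10, on which the authors counted, was not used here. Tubb4b gained 630 and 166 reads, the same numbers that Fam166a gained, whose exons overlap those of Tubb4b on the opposite strand over 121 bases. Tuba4a gained 245 and 64 reads, again the same numbers as its overlapping neighbour Stk16. Tubb5 gained 10 and 6 reads, and its ratio moved by less than its counting interval.

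The pseudogene row Tubb2a-ps2, which is in none of the lists, held 33 SVZ reads and 31 cortex reads.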

How the results depend on the processing

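No paired analysis was possible because the SVZ and the cortex have 1 library each, which also leaves no replicate to drop. Of 70 recomputed ratios of members, 40 moved by less than the counting interval, 29 moved beyond it with the same sign and 1 turned: Tuba1c, at −0.54 on the log2 scale with the stranded sum, where the ratio of Tuba1a to Tuba1c came to −0.83. The median of the 10 members was −0.12 under TMM, upper-quartile and DESeq2 scaling, which shifted the median of all genes by at most −0.099, and −0.56 with the stranded sum. At least 2-fold higher in the SVZ stood 1 member (in place of 0) when the SVZ library was thinned to the cortex total, 1 when a mean of 1 CPM sufficed and 1 with no filter on low values, and 2 at a limit of 1.5-fold. At least 2-fold higher in the cortex stood 4 members (in place of 3) under TMM, upper-quartile and DESeq2 scaling, Tubb2b being added, and 0 at a limit of 4-fold. The Tuba1a share of the alpha pool was 90.7% of reads not divided by length, 90.0% with the stranded sum and 84.2% per unique kilobase in the SVZ, and 97.5% with the stranded sum and 96.5% per unique kilobase in the cortex. The Tubb3 share of the beta pool was 14.2% of reads and 15.7% per unique kilobase in the SVZ, and 25.7% and 26.5% in the cortex. The counts of other pathway genes past 2-fold stayed within 1.5 times. Unique windows were counted among GENCODE M21 transcripts, an alternative chosen after seeing the data; the planned count over the genome was not run, as no genome sequence was used here. Depth limits Tuba1c, Tubb6 and Tuba4a, whose cortex counts were 44, 124 and 2 reads.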
